A study of Homo sapiens with 24 samples.

Results

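The transcriptional response of HepG2 cells, a human hepatocellular carcinoma line, to interferon gamma (IFNg) in the presence of the bromodomain inhibitor ABBV-744 at 50 nM was described from 6 of the 24 RNA-seq libraries in the series. These 6 libraries were chosen by their labels. In 3 of them the cells had received IFNg together with ABBV-744 at 50 nM, and in the other 3 they had received ABBV-744 at 50 nM without IFNg, so that both groups carried the inhibitor and were labelled as differing in IFNg alone. The remaining groups, each of 3 libraries, were DMSO, IFNg, ABBV-744 at 500 nM with and without IFNg, and ABBV-075 at 50 nM with and without IFNg. ABBV-744 is a BET inhibitor selective for the second bromodomain, and ABBV-075 (mivebresib) is a pan-BET inhibitor. The dose of IFNg and the treatment times of the ABBV-744 and IFNg groups were not given in the sources used here. All groups come from a single cell line, and the labels do not say whether the replicates were separate cultures, so the p-values measure only the spread between these libraries. In RNA from whole cultures, fewer cells expressing a gene and less RNA per cell cannot be told apart.

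IFNg is the cytokine by which T cells and natural killer cells signal to neighbouring cells, liver cells included. It binds the receptor pair IFNGR1 and IFNGR2, whose kinases JAK1 and JAK2 activate transcription factors of the STAT family. These bind GAS elements and induce, among others, the transcription factor IRF1, which with a complex that holds STAT2 and IRF9 acts on interferon-stimulated response elements (ISRE) in genes of antigen presentation, antiviral defence and cell death. BET proteins bind acetylated histones and help RNA polymerase II to leave promoters, and a rise of HEXIM1 is a known marker of their inhibition.

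Promoter sequences are shown first because GAS and ISRE elements are the textbook route of this response. They are RefSeq promoters (GRCh38.p14, from 250 bases before to 50 bases after the transcription start), written 5′ to 3′ on the strand of the gene, with matches on either strand to TTCNNNGAA (GAS) or to GAAA, any 2 bases and GAAA again (ISRE) in capitals. IRF1 (chr5:132490724-132491023, minus strand) and TAP1 (chr6:32853655-32853954, minus strand, 1 of the 2 starts listed for the gene) are the marker genes of the response. EPSTI1 (chr13:42992192-42992491, minus strand) and GBP4 (chr1:89198893-89199192, minus strand) had 0 counts in all 3 libraries without IFNg and rose to well above the floor. PARP14 (chr3:122680589-122680888, plus strand) had a larger response than without inhibitor.

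IRF1: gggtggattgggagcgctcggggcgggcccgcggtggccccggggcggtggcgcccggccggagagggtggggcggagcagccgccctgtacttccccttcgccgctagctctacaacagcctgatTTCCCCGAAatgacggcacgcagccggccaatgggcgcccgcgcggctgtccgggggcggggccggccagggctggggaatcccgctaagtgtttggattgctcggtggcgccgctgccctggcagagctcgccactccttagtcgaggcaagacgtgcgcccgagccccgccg

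TAP1: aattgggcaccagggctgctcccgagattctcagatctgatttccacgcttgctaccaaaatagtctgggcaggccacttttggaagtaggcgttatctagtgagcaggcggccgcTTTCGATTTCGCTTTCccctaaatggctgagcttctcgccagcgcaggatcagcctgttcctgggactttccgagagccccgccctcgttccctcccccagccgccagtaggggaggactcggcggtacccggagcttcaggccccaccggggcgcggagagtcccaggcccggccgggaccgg

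EPSTI1: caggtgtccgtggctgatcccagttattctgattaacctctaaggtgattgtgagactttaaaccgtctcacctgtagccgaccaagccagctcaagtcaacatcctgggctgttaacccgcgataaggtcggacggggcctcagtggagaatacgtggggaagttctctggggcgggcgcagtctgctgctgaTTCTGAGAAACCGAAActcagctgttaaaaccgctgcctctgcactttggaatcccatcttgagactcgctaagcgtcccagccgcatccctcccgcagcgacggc

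GBP4: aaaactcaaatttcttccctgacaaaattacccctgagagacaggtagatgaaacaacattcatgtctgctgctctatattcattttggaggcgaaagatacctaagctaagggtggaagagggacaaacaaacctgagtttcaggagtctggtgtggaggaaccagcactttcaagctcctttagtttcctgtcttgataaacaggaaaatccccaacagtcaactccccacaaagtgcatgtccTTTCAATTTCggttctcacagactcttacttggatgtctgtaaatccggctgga

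PARP14: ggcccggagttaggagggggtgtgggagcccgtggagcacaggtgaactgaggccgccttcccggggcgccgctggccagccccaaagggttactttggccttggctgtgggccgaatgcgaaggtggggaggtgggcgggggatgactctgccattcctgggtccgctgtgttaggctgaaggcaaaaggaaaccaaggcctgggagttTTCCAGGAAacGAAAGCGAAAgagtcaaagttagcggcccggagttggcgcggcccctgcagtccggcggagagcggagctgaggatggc

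The IRF1 promoter held 1 GAS match and no ISRE match, and the TAP1 promoter held 2 ISRE matches that overlap each other. In the EPSTI1 promoter 1 GAS and 1 ISRE match overlap, the GBP4 promoter held 1 ISRE match at the start site, and the PARP14 promoter held 1 match of each kind a few bases apart. Of the 116 genes that were upregulated past both thresholds below, 79 had a listed promoter, and these 79 genes had 115 promoters in all. An ISRE match was in 31.3% of these 115 promoters, against 3.57% of all 35116 listed promoters, and a GAS match in 13% against 7.66%. These are matches of letters in a short window and not measured binding sites.

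The 6 libraries held 3174722 to 3985919 reads counted on genes, against 2978982 to 4304103 over all 24. Several library properties separated the groups without overlap. Reads mapping to several places were 66.2% to 69.4% of the reads without IFNg and 57.5% to 59.6% with it, and reads outside annotated genes were 14.8% to 17.3% and 22.8% to 24.1%. The 10 most abundant genes took 27.9% to 32.4% and 22.7% to 24.3% of the gene counts. The GC trend also differed: across 10922 tested genes with a known GC content, the uncorrected log2 fold change had a Spearman correlation of -0.76 with GC content, and -0.032 after a curve had been taken out of each library. The correction moved the median log2 fold change of all tested genes from -0.072 to 0.082. The part of these library properties in the smaller fold changes was not tested. ABBV-744 replicate 2 stood apart from replicates 1 and 3 of its group, with a chi-square per degree of freedom of 6.73 and 4.69 against 2.24 to 2.62 for the 4 other pairs of replicates. CPM below is the normalised read count, relative to library size, after TMM scaling and GC correction.

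**Figure D1:**
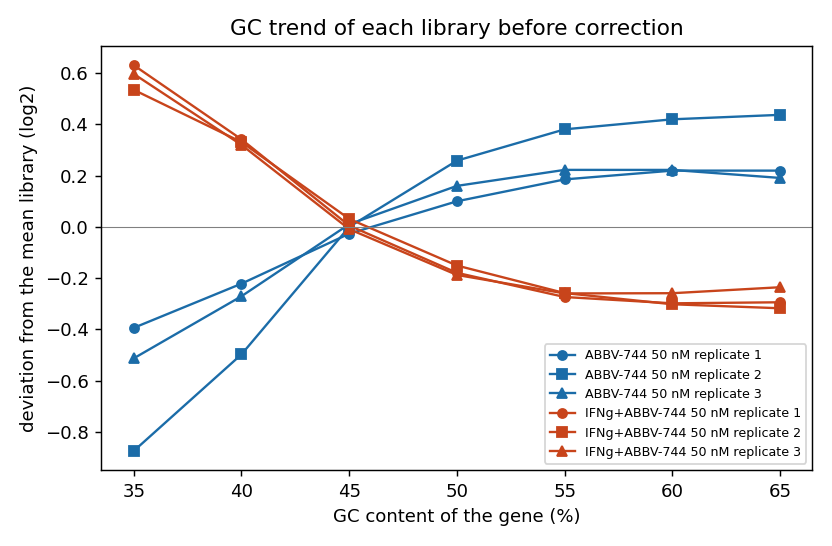
Deviation of each library from the mean of the 6 libraries (log2) against the GC content of genes (%), before correction; 1 line per library. The 3 ABBV-744 libraries (blue) run from -0.39, -0.87 and -0.51 at 35% GC to positive values from 50% GC on, and the 3 libraries with IFNg and ABBV-744 (orange) run the opposite way.

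IFNg strongly induced both marker genes under ABBV-744 at 50 nM. IRF1 (chr5:132440440-132508719, minus strand, GRCh38, GENCODE annotation) encodes the transcription factor that relays the response. Its level was 15.6, 11.8 and 16.7 CPM in the 3 libraries without IFNg and 258, 249.8 and 270.2 CPM in the 3 with IFNg, a mean of 14.7 ± 2.57 against 259 ± 10.3 (SD, n = 3). The groups lay far apart, and the log2 fold change was 4.15 (SE 0.11) with an adjusted p of 2.16e-17 (edgeR quasi-likelihood test, Benjamini-Hochberg adjustment over all genes tested, as for all adjusted p-values below). TAP1 (chr6:32845209-32853816, minus strand), a subunit of the transporter that carries peptides to HLA class I, went from 52.0, 57.6 and 57.0 to 601, 583 and 633 CPM, a log2 fold change of 3.45 (SE 0.082) with adjusted p = 5.04e-18. Scaled over all 24 libraries, IRF1 stood at 246 to 265 CPM here, 197 to 223 with IFNg alone, 225 to 246 with the 500 nM dose and 229 to 268 with ABBV-075. TAP1 stood at 573 to 622, 619 to 661, 557 to 603 and 507 to 508 CPM in the same order.

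**Figure D2:**
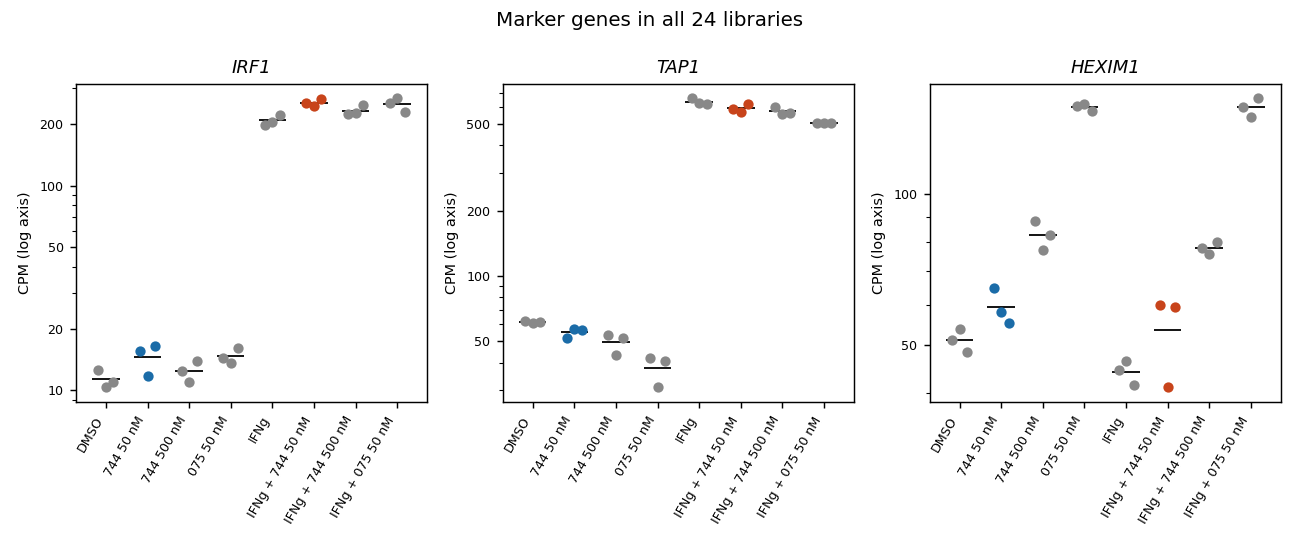
Level of IRF1, TAP1 and HEXIM1 (CPM, log axis) in each of the 24 libraries by group; points are libraries and lines are group means. IRF1 and TAP1 are high in all 4 groups with IFNg, and HEXIM1 runs from 48.3 to 53.7 CPM in DMSO over 55.2 to 64.7 with ABBV-744 at 50 nM to 147 to 152 with ABBV-075.

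HEXIM1, the marker of BET inhibition, was 64.8, 58.8 and 55.9 CPM without and 61.2, 41.7 and 60.5 CPM with IFNg under ABBV-744 at 50 nM. These groups overlapped, and the change missed the test (log2 fold change -0.13 (SE 0.13), adjusted p = 0.463). Without the GC correction HEXIM1 fell by 0.39 on the log2 scale (adjusted p = 0.0199). The cells carried their hepatocyte markers: all 14 were tested, with albumin (ALB) at 2878, 2513 and 2853 CPM without and 2407, 2933 and 2622 CPM with IFNg. Of 12 markers of blood, stromal and endothelial cells, 7 had any count without IFNg and 6 with it. PTPRC, CD3E, COL1A2, COL3A1 and CDH5 had 0 counts in all 6 libraries. The summed level of all 12, nearly all of it lysozyme (LYZ), was 1458 to 1691 CPM without IFNg and 1891 to 1987 with it, before the GC correction. After it, LYZ fell by 0.24 and ACTA2 by 0.49 on the log2 scale. The part of other cell types in the response was not tested.

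Of 11088 genes tested, 116 (1.05%) were upregulated by IFNg past the thresholds used in the study, an adjusted p not above 0.05 with a log2 fold change of 1.5 or more in either direction, and 18 (0.162%) were downregulated, together 1.21%. At the adjusted p alone, 2378 (21.4%) rose and 1266 (11.4%) fell. Many of these calls were small: 855 of the genes that rose and 550 of those that fell changed by less than 0.5 on the log2 scale. The groups did not overlap for 5076 genes (45.8%). Of the 116 strongly upregulated genes, 115 had groups that did not overlap, 106 were protein coding and 58 belonged to 15 lists of interferon-linked genes. Over these 15 lists, 137 of 186 genes had enough counts to be tested, of which 107 (78.1%) rose, 58 (42.3%) passed both thresholds and 4 (2.92%) fell. Their median log2 fold change was 1.22, against 0.082 over all genes tested. Leaving out ABBV-744 replicate 2 gave 124 genes upregulated and 15 downregulated past both thresholds, 105 and 9 of them shared with the full comparison, and all but 2 of the 58 list members stayed among them. Leaving out ABBV-744 replicate 1 raised the upregulated count to 179, with 115 of the 116 kept, and leaving out replicate 1 of the IFNg and ABBV-744 group raised the downregulated count to 31. Without the GC correction 567 genes were upregulated past both thresholds, 93 of the 116 among them.

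**Figure D3:**
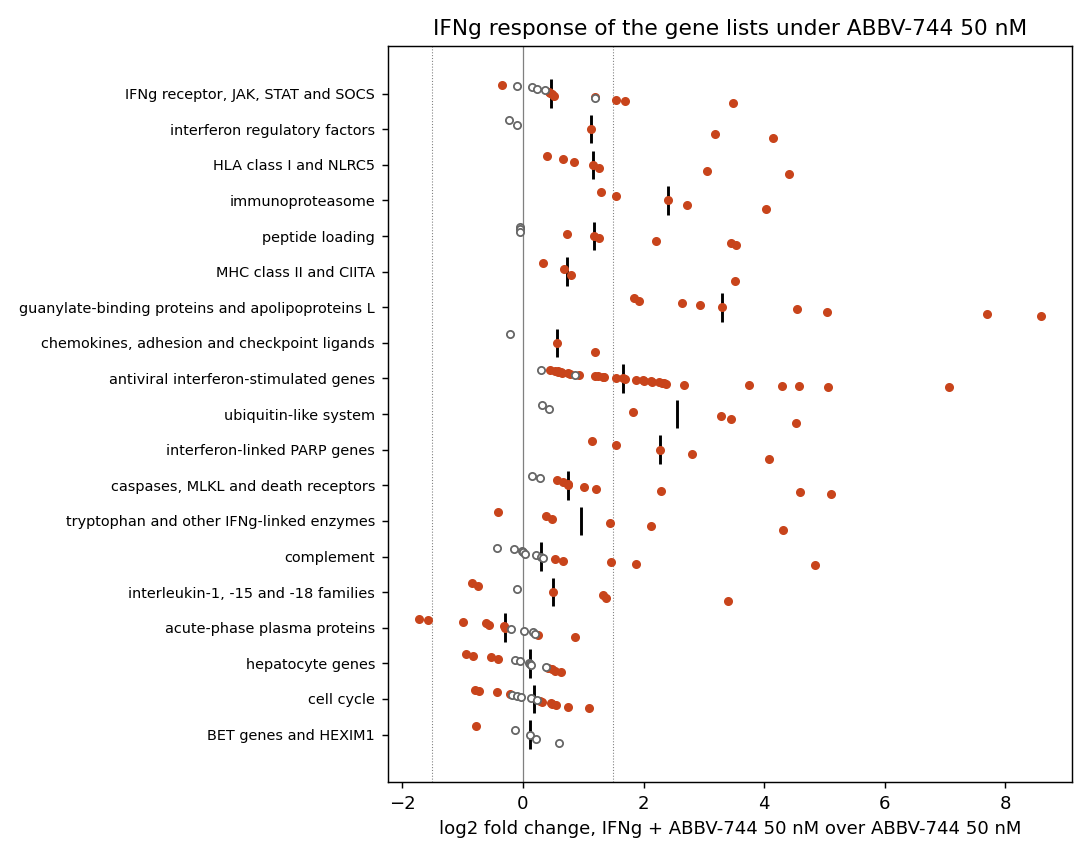
Log2 fold change of IFNg and ABBV-744 over ABBV-744 at 50 nM for each tested member of 19 gene lists; filled points passed adjusted p 0.05, open points did not, bars are list medians and dotted lines mark 1.5 in each direction. The joint list of guanylate-binding proteins and apolipoproteins L lies furthest right (median 3.31, or 2.93 with genes at the floor set to their lower bound). Acute-phase plasma proteins lie left of 0 (median -0.30).

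In the signalling pathway itself STAT2 and SOCS1 rose past both thresholds, while the receptor chains missed the test. Of 14 tested genes of the receptor, JAK, STAT and SOCS list, 8 rose, 1 fell and 3 passed both thresholds. STAT2, a subunit of the ISRE-binding complex, went from 41.8, 43.7 and 40.7 to 118, 119.8 and 132 CPM, with no overlap between the groups. SOCS1, the feedback inhibitor of the JAK kinases, had 6.65, 6.22 and 4.56 CPM without and 22.6, 18.2 and 16.2 with IFNg, a log2 fold change of 1.70 (SE 0.22). The receptor chains missed the test, IFNGR1 at 0.15 (adjusted p = 0.266) and IFNGR2 at -0.10 (adjusted p = 0.445) on the log2 scale. Without the GC correction IFNGR1 passed it upwards and IFNGR2 downwards.

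Among the interferon regulatory factors 5 of 9 genes were tested and 3 rose. Beside IRF1, these were IRF9, the DNA-binding subunit of the STAT complex, which went from 13.5, 14.8 and 16.6 to 129, 133 and 147 CPM (log2 fold change 3.19 (SE 0.12)), and IRF2, an antagonist of IRF1, with a log2 fold change of 1.13 (SE 0.15).

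Genes of antigen presentation by HLA class I rose together. All 7 tested genes of HLA class I and NLRC5 rose, 2 past both thresholds. HLA-E, the ligand of the NKG2A receptor of natural killer cells, had 85.4, 81.7 and 73.8 CPM without and 669, 636 and 695 CPM with IFNg. NLRC5, the transactivator of the class I genes, went from 9.49, 8.78 and 7.37 to 180.1, 180.1 and 191 CPM, a 21.4-fold increase. The classical genes rose less, HLA-B by 1.26 and HLA-C by 0.85 on the log2 scale. HLA genes are near-identical copies, and reads that map to several of them are not in these counts, so their levels are uncertain. Of 9 peptide-loading genes 6 rose. ERAP2, which trims peptides in the endoplasmic reticulum, went from 13.0, 12.2 and 11.8 to 144, 133 and 155 CPM, TAP2, the partner of TAP1, from 45.4, 45.4 and 48.1 to 226, 202 and 217 CPM, and tapasin (TAPBP) rose by 1.27 on the log2 scale.

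All 5 immunoproteasome genes rose, and 4 of them passed both thresholds, with a list median of 2.40. PSMB9, a catalytic subunit, had 6.41, 5.79 and 9.69 CPM without and 122, 114 and 119 CPM with IFNg (log2 fold change 4.02 (SE 0.14)). PSMB8 and PSMB10, the other inducible catalytic subunits, had log2 fold changes of 2.73 (SE 0.18) and 2.40 (SE 0.12). PSME2, a subunit of the activator cap, was already at 228, 226 and 229 CPM without IFNg and reached 665, 679 and 659 CPM.

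The class II genes of professional antigen-presenting cells were mostly below detection. Of 16 genes in the list 12 had too few counts to be tested, and HLA-DRA and HLA-DRB1 had 0 counts in all 6 libraries. Their transactivator CIITA had 0, 0 and 0 counts without and 2, 5 and 4 counts with IFNg. All 4 tested genes rose, among them the lysosomal thiol reductase IFI30, at a log2 fold change of 0.80 (SE 0.12), and the invariant chain CD74, at 0.67 (SE 0.14). Neither IFI30 nor CD74 passed the test without the GC correction. The lysosomal protease CTSS was at the floor of 3 counts or fewer in each library without IFNg and at least 9.05-fold higher with it.

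Guanylate-binding proteins, GTPases that attack pathogen vacuoles, and the apolipoproteins L had the strongest list response. All 9 tested genes passed both thresholds, with a median log2 fold change of 3.31, or 2.93 with the 4 genes at the floor set to their lower bound. GBP4 had 0, 0 and 0 counts without and 69, 55 and 53 counts with IFNg, at least 16.8-fold higher, and GBP5 had 0, 0 and 0 and 33, 36 and 32, at least 9.69-fold higher. GBP2 went from 4.26, 4.62 and 2.48 to 37.9, 33.8 and 41.4 CPM. APOL6 went from 67.7, 61.2 and 63.7 to 484, 497 and 493 CPM, and APOL1, the trypanolytic factor of serum, rose by 1.84 on the log2 scale. GBP3 was not tested, with 0, 0 and 0 counts without and 13, 6 and 7 with IFNg.

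Antiviral interferon-stimulated genes formed the largest list, with 33 of 41 tested. Of these, 31 rose and 18 passed both thresholds, at a median of 1.66. RNF213, a large ubiquitin ligase, went from 63.3, 64.9 and 65.7 to 255, 248 and 209 CPM, and SAMHD1, which depletes nucleotides needed by retroviruses, from 87.5, 81.6 and 93.8 to 267, 269.8 and 292 CPM. IFIT3, a partner of proteins that bind viral RNA, had 3.81, 0.711 and 3.39 CPM without IFNg and 54.97, 56.3 and 50.1 CPM with it. OAS2, which makes the activator of RNase L, was at the floor without IFNg and at least 32.1-fold higher with it. MX1, an antiviral GTPase, stood at 1.32, 1.96 and 2.15 and 2.72, 4.12 and 3.15 CPM. Its groups did not overlap, but the change missed the test at a log2 fold change of 0.87 (SE 0.41) and adjusted p = 0.114. Without the GC correction MX1 passed it, at 1.28 (adjusted p = 0.0102).

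Ubiquitin-like modifiers and PARP genes rose as well. Of 6 tested genes of the ubiquitin-like system 4 passed both thresholds. UBD (FAT10), which targets proteins to the proteasome, went from 41.9, 44.6 and 52.3 to 497, 497 and 515 CPM, and UBE2L6, the conjugating enzyme of ISG15, from 21.6, 27.4 and 21.0 to 218, 251 and 218 CPM. ISG15 itself rose by 1.83 on the log2 scale, whereas USP18, which removes it from proteins, missed the test at 0.31 (adjusted p = 0.0874, 0.0423 without ABBV-744 replicate 2 and 0.00321 without the GC correction). All 5 genes of the interferon-linked PARP list rose, DTX3L counted among them. PARP14 had 25.6, 12.7 and 20.6 CPM without and 354, 331 and 325 CPM with IFNg, and PARP9 and its partner DTX3L, which lie next to each other in the genome, had log2 fold changes of 2.80 (SE 0.11) and 2.27 (SE 0.11).

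Cell death genes rose in 9 of 11 cases. XAF1, a proapoptotic antagonist of XIAP, went from 0.977, 1.89 and 2.11 to 60.2, 50.5 and 62.9 CPM, a log2 fold change of 5.12 (SE 0.23). TNFSF10, the death ligand TRAIL, went from 2.41, 3.07 and 2.68 to 13.2, 13.0 and 13.5 CPM, and CASP1, the inflammasome caspase, was at least 9.01-fold above the floor. Of 6 tested enzymes linked to IFNg, 5 rose and 1 fell. WARS, the tryptophanyl-tRNA synthetase, had the lowest adjusted p of all genes (8.5e-19), with 41.7, 32.3 and 35.3 CPM without and 725, 714 and 731 CPM with IFNg, and the aminopeptidase LAP3 went from 92.3, 76.0 and 81.4 to 359, 364 and 369.9 CPM. NAMPT, an enzyme of NAD synthesis with a GC content of 34.3%, fell by 0.42 on the log2 scale (adjusted p = 0.0132) but rose by 0.81 without the GC correction. This call was also lost without ABBV-744 replicate 1 (adjusted p = 0.0872), without replicate 2 (0.0759) and with no filter on low counts (0.181). IDO1 was not tested.

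Secreted immune factors were more divided. Of 13 tested complement genes 5 rose, none fell and 2 passed both thresholds. Over all genes tested 21.4% rose, 11.4% fell and 1.05% were upregulated past both thresholds. SERPING1, the inhibitor of C1, was at the floor without IFNg and at least 8.37-fold higher with it, and the C1 protease genes C1R and C1S went from 3.65, 3.87 and 5.76 to 15.3, 17.0 and 16.7 CPM and from 16.4, 20.6 and 22.3 to 56.4, 53.6 and 53.2 CPM. C3 had 768, 725 and 751 CPM without and 725, 724 and 576 CPM with IFNg, which missed the test (adjusted p = 0.16), but fell by 0.70 on the log2 scale without the GC correction (adjusted p = 6.52e-06) and by 0.25 with no filter on low counts (adjusted p = 0.00329). Of 7 tested interleukin-family genes 4 rose and 2 fell, among them the interleukin-18 antagonist IL18BP, from 8.08, 4.59 and 4.11 to 15, 15.3 and 13.3 CPM, and the receptor chain IL10RB, from 26.3, 38.7 and 32.4 to 18.6, 18.6 and 16.6 CPM. The adhesion molecule ICAM1 rose by 1.19 on the log2 scale. CXCL9, CXCL10 and CXCL11, the classical IFNg chemokines, had too few counts to be tested, as had the checkpoint ligand CD274 (PD-L1), with 0, 0 and 0 counts without and 9, 5 and 10 counts with IFNg.

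Among genes past the adjusted p whose log2 CPM averaged 1 or more and whose groups lay apart, the 8 largest fitted increases were EPSTI1, GBP4, ETV7, GBP5, OAS2, DDX60, CMPK2 and XAF1. Of these, 7 were at or below 3 counts in every library without IFNg, so their folds are lower bounds and their order among themselves and against XAF1 is not established. EPSTI1 had 0, 0 and 0 counts without and 94, 73 and 84 counts with IFNg, at least 23.9-fold higher. ETV7, a repressor of the ETS family, was at least 8.14-fold higher, DDX60, a helicase of RNA sensing, at least 13.3-fold, and CMPK2, a mitochondrial nucleotide kinase, at least 10.7-fold.

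By the same rule the 8 largest decreases were COMMD3, SNORA40, PDGFB, UBA6-AS1, SNORA63, GLUL, RNU5F-1 and ITIH4, 3 of them small nucleolar or spliceosomal RNAs. Small RNA genes made up 7 of the 18 genes downregulated past both thresholds and none of the 116 upregulated, against 161 (1.45%) of the genes tested. GLUL, the glutamine synthetase, had 561, 645 and 614 CPM without IFNg and 176, 180.4 and 178 CPM with it, a log2 fold change of -1.77 (SE 0.074) with adjusted p = 5.49e-14. SNORA63, which guides pseudouridylation of ribosomal RNA, went from 1406, 2443 and 1432 to 587, 374 and 525 CPM, and SNORA40 from 166, 259 and 144 to 53.0, 37.3 and 43.4 CPM. In both, ABBV-744 replicate 2 was the highest library by CPM. Their raw counts, before scaling and GC correction, lay closer together. For SNORA63 they were 3661, 4359 and 3199 without and 3649, 1881 and 2784 with IFNg. For SNORA40 they were 403, 402 and 295 without and 368, 201 and 256 with it. Both genes are low in GC, at 35.7% and 32.5%. For UBA6-AS1, at 33.7% GC, the raw counts overlapped, with 27, 32 and 24 without and 25, 14 and 27 with IFNg. Without the GC correction UBA6-AS1 missed the test, at -0.55 (adjusted p = 0.086). ITIH4, an acute-phase inhibitor chain, had 5.69, 2.88 and 5.74 and 1.78, 2.06 and 0.335 CPM and missed the test without replicate 3 of the IFNg and ABBV-744 group (adjusted p = 0.0553). Of the 18 decreases, 11 remained past both thresholds when transcript length was corrected as well as GC, and 5 without either correction.

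Liver plasma proteins were divided, with more decreases than increases. Of 13 tested acute-phase genes 7 fell and 2 rose. Over all genes tested 11.4% fell and 21.4% rose, the background for this list and for the hepatocyte and cell cycle lists below. The fibrinogen chains FGA and FGG went from 479, 494 and 452 to 264, 199 and 256 CPM and from 1907, 1930.3 and 1941 to 1212, 1309 and 1265 CPM, and the antichymotrypsin gene SERPINA3 from 1239, 1282 and 1199 to 860.1, 828 and 831 CPM. FGG rose by 0.36 on the log2 scale without the GC correction, so its direction rests on that correction. SERPINA1 (alpha-1 antitrypsin) fell by 0.32 on the log2 scale. Of 14 hepatocyte genes 4 rose and 4 fell. Transferrin (TF) went from 3658, 4306 and 3663 to 2189, 2118 and 2218 CPM and transthyretin (TTR) from 114, 129 and 121 to 59.7, 62.0 and 66.5 CPM, and AHSG (fetuin-A) fell by 0.53 on the log2 scale, while alpha-fetoprotein (AFP) rose by 0.48. ALB missed the test at -0.051 (adjusted p = 0.641) and rose by 0.49 without the GC correction (adjusted p = 0.000805). Of 16 cell cycle genes 7 rose and 4 fell. Topoisomerase TOP2A went from 346, 239 and 272 to 618, 595 and 621 CPM, and the mitotic kinase PLK1 and cyclin CCNB1 fell by 0.79 and 0.72 on the log2 scale.

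Whether ABBV-744 at 50 nM changed the response was tested as the difference between the IFNg response with the inhibitor and that without it, over 12 libraries. This and the next pair of comparisons share the 6 libraries described here. For most interferon-linked genes no difference passed the test. Of 138 members tested, the response was larger for 15 (10.9%) and smaller for 18 (13%), against 11.5% and 8.81% (20.3% in either direction) of all 11451 genes tested, shares near the background. The median difference over these members was -0.032. They include GBP4 and GBP5, with 0 counts in DMSO and under ABBV-744 alone. There the standard error of the difference was 552 and 1566 on the log2 scale. For such genes this test could not pass, so a missed test says nothing about their response. For the central genes the intervals bound what could have been missed. The difference in log2 fold change was -0.095 (95% interval -0.45 to 0.27) for IRF1, 0.033 (95% interval -0.18 to 0.25) for TAP1 and -0.10 (95% interval -0.36 to 0.16) for WARS, with adjusted p-values of 0.656 to 0.874. In the comparison of IFNg alone with DMSO, 372 of 11217 genes tested rose (3.32%) and 131 fell (1.17%), together 4.48%, with 88 (0.785%) upregulated and 2 (0.0178%) downregulated past both thresholds, together 0.802%. Of these 88 genes 84 were tested under ABBV-744, where 83 rose and 70 passed both thresholds.

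**Figure D4:**
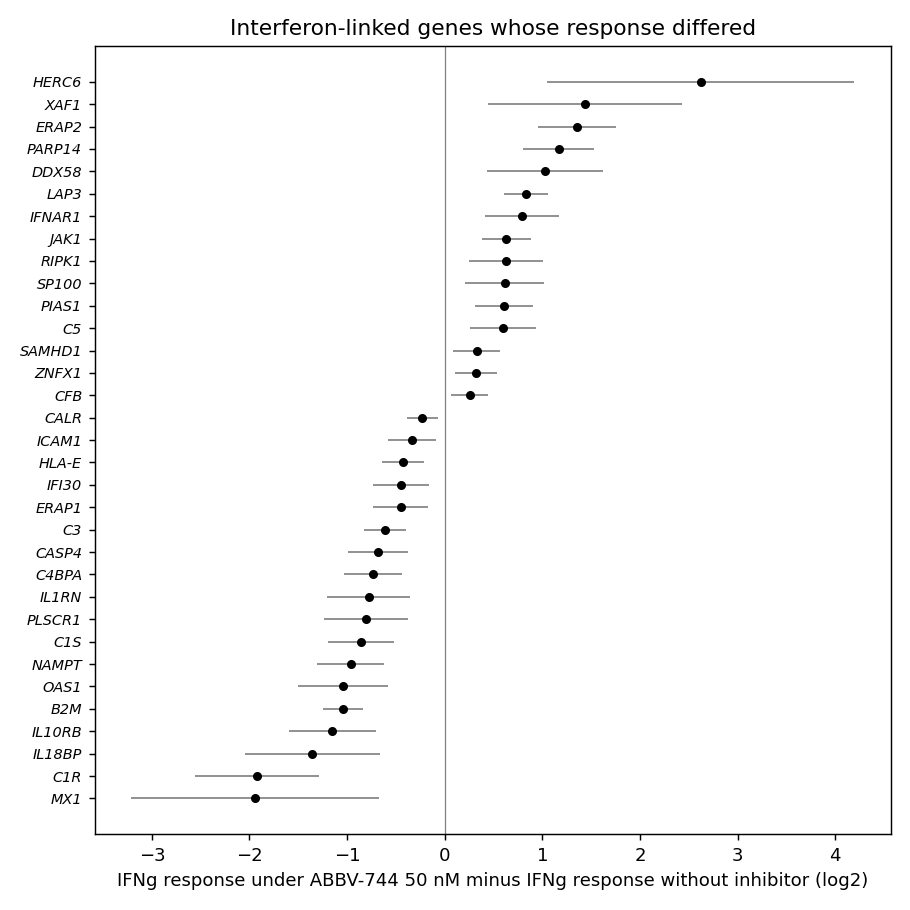
Difference of the IFNg response, under ABBV-744 at 50 nM minus without inhibitor (log2), for the 33 interferon-linked genes whose difference passed adjusted p 0.05; points are estimates and bars 95% intervals. HERC6 has the largest positive fitted difference (2.62) and MX1 the largest negative one (-1.94). HERC6 was at the floor of 3 counts or fewer in each library with ABBV-744 alone, so the size of its difference is not established.

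Among the members whose response differed, named here after their values were seen, the complement protease gene C1R had a smaller response. Its log2 fold change was 1.88 with ABBV-744 and 3.77 without, a difference of -1.92 (95% interval -2.55 to -1.28) with adjusted p = 2.07e-05. Scaled over all libraries C1R reached 59.5 to 62.7 CPM with IFNg alone and 15.01 to 16.7 CPM with IFNg and ABBV-744, from 3.19 to 5.26 and 3.64 to 5.67 CPM without IFNg. The neighbouring protease gene C1S had a difference of -0.86 (95% interval -1.19 to -0.52), adjusted p = 0.000205, and IL18BP of -1.36 (95% interval -2.05 to -0.67), adjusted p = 0.00363. HLA-E differed by -0.42 (95% interval -0.64 to -0.21), adjusted p = 0.00375. The light chain of HLA class I, B2M, reached 777 to 815 CPM with IFNg alone and 444 to 464 CPM with both, a difference of -1.04 (95% interval -1.25 to -0.83) with adjusted p = 4.87e-09. B2M has a GC content of 38.9%, and without the GC correction its difference was -0.15, adjusted p = 0.252. The antiviral gene OAS1, at -1.04 with adjusted p = 0.000945, likewise missed the test without the correction, at -0.40, adjusted p = 0.153, and so did MX1, at -1.46, adjusted p = 0.054, which also missed it without ABBV-744 replicate 2 (adjusted p = 0.0676), whereas C1R, C1S and IL18BP still passed it.

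A larger response than without inhibitor was measured for ERAP2, PARP14, LAP3 and HERC6. HERC6 was at the floor of 3 counts or fewer in each library with ABBV-744 alone, so the size of its difference is not established. ERAP2 rose by 3.54 on the log2 scale with ABBV-744 and by 2.15 without, a difference of 1.36 (95% interval 0.96 to 1.75) with adjusted p = 2.89e-06. Its level without IFNg was lower with the inhibitor, 11.8 to 13.2 CPM against 19.96 to 27.1 CPM in DMSO, and its level with IFNg was higher, 134 to 155 CPM against 91.6 to 107 CPM. PARP14 differed by 1.17 (95% interval 0.80 to 1.53), adjusted p = 7.98e-06, and LAP3 by 0.83 (95% interval 0.61 to 1.06), adjusted p = 7.41e-07. These 4 differences also passed the test without the GC correction. Leaving out ABBV-744 replicate 2 kept 11 of the 15 larger and 14 of the 18 smaller responses. Leaving out the GC correction kept 12 of the 15 larger and 11 of the 18 smaller ones.

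**Figure D5:**
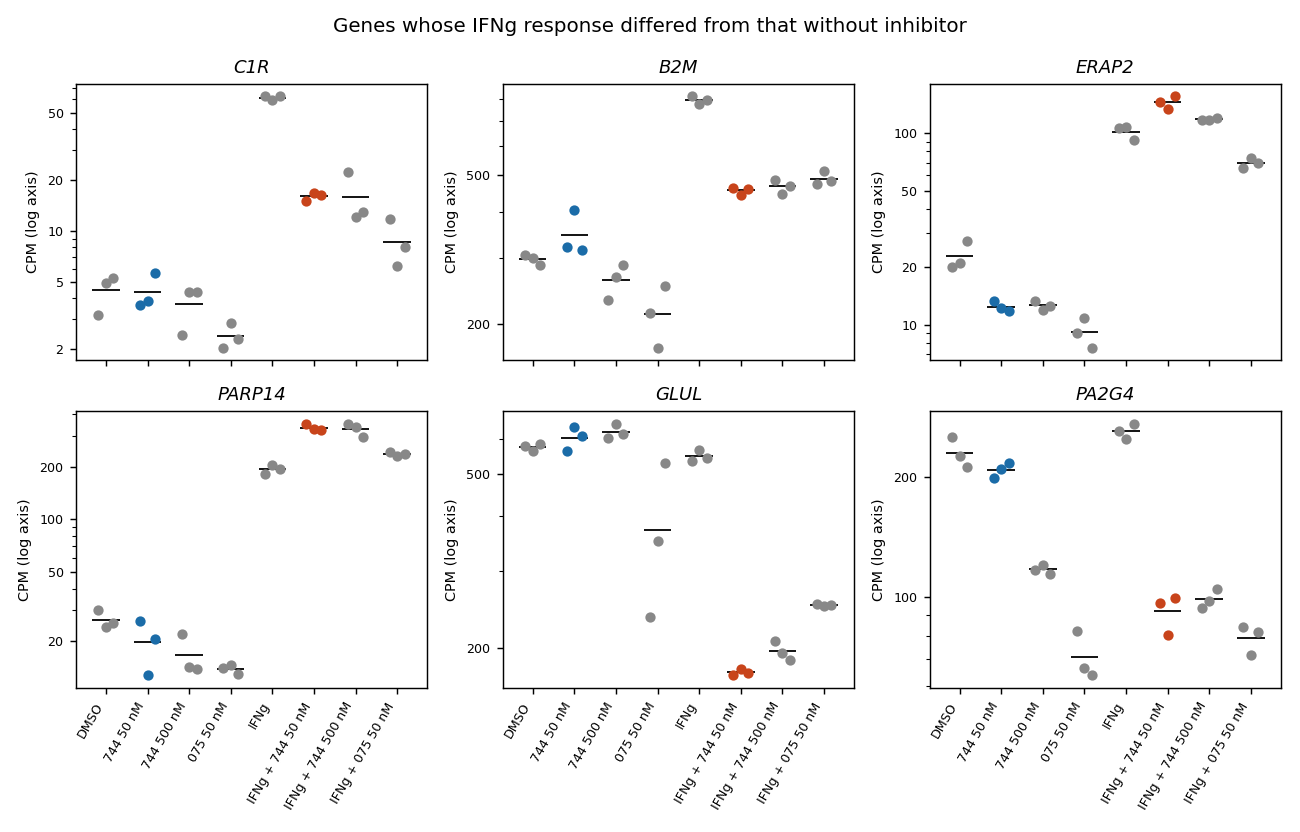
Level (CPM, log axis) of 6 genes in all 24 libraries by group; points are libraries, lines are group means, and colours mark the ABBV-744 50 nM groups without (blue) and with IFNg (orange). C1R and B2M are highest with IFNg alone, and GLUL is lowest with IFNg and ABBV-744 at 50 nM, at 174 to 179 CPM. The GLUL response did not differ past the test from that under ABBV-744 at 500 nM (difference -0.12, 95% interval -0.32 to 0.080).

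Over all genes, the 4 differences of lowest p in each direction from the response without inhibitor lay outside the interferon-linked lists. GLUL had the lowest adjusted p (8.82e-16) at a difference of -1.73 (95% interval -1.91 to -1.55). It stood at 563 to 586 CPM in DMSO, 564 to 641 with ABBV-744 alone and 534 to 567 with IFNg alone, and at 174 to 179 with both. PA2G4 (EBP1), a regulator of growth, was likewise lowest with both, at 211 to 251, 199 to 217, 248 to 271 and 80.6 to 99.7 CPM. Transferrin differed by -1.06 (95% interval -1.24 to -0.88). In the other direction, the autophagy receptor TAX1BP1 went from 79.1, 36.2 and 59.4 to 220.3, 213 and 218 CPM and the chaperone HSP90AA1 from 791, 396 and 571 to 1947, 1651 and 1839 CPM, with differences of 1.87 (95% interval 1.51 to 2.23) and 1.71 (95% interval 1.36 to 2.05). ABBV-744 replicate 2 was the lowest library of its group for both. ARHGAP5, a GTPase-activating protein, and PON2, a paraoxonase, differed by 1.03 and 1.16. The GC trend, which differed between the ABBV-744 groups more than between DMSO and IFNg, was corrected in the same fit. The part of the other library properties in these differences was not tested. Of the genes named here, only PA2G4 also differed past the test from the response under ABBV-744 at 500 nM (-0.92, adjusted p = 0.000204). The difference from 500 nM was -0.12 for GLUL (95% interval -0.32 to 0.080, adjusted p = 0.831). For TAX1BP1 it was 0.17 (95% interval -0.24 to 0.59, adjusted p = 0.901). For HSP90AA1 it was 0.079 (95% interval -0.31 to 0.47, adjusted p = 0.966).

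Against ABBV-744 at 500 nM, the response under 50 nM differed for 12 of 11343 genes tested (0.106%), 2 (0.0176%) with a larger and 10 (0.0882%) with a smaller response. Only 1 of 139 interferon-linked genes, NAMPT, passed this test, at -0.93 (95% interval -1.33 to -0.53) with adjusted p = 0.0478, and it missed it in 17 of 23 alternatives, among them DESeq2 with the GC correction (adjusted p = 0.0522), RLE scaling (0.061) and all 24 libraries (0.0737). The differences were -0.085 (95% interval -0.45 to 0.28) for IRF1 and -0.11 (95% interval -0.34 to 0.13) for TAP1, intervals that leave room for modest dose effects. PA2G4 had the smallest p at -0.92 (95% interval -1.17 to -0.68) with adjusted p = 0.000204: it stood at 114 to 121 CPM with 500 nM alone, and 94.1 to 105 CPM with IFNg and 500 nM. The ribosomal RNA precursor RNA45S5 differed by -0.72, the nuclear pore gene NUP50 by -0.78 and PXDC1 by -1.07, while the splicing regulator MBNL2 and the ubiquitin ligase ZNRF2 had larger responses by 0.72 and 0.77. MBNL2 lost its call in 16 and ZNRF2 in 17 of 23 alternatives. These counts are small and moved widely: leaving out 1 library gave 0 to 3 larger and 3 to 70 smaller responses, the highest without replicate 2 of ABBV-744 at 500 nM.

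Against ABBV-075 at the matched dose of 50 nM, the response differed for 805 of 11380 genes tested (7.07%), larger for 445 and smaller for 360. Of 138 interferon-linked genes, the response under ABBV-744 was larger for 7 (5.07%) and smaller for 11 (7.97%), against 3.91% and 3.16% of all genes. For TAP2 it was smaller by -1.09 (95% interval -1.40 to -0.78), adjusted p = 0.000278, with levels of 44.9 to 47.5 CPM under ABBV-744 and 23.1 to 28.6 CPM under ABBV-075 without IFNg, and 199.7 to 221 and 226 to 263 CPM with it. UBD differed by -0.69 (95% interval -1.01 to -0.36). The response was larger under ABBV-744 for SAMHD1, by 0.81 (95% interval 0.58 to 1.05), for LAP3, by 0.83 (95% interval 0.55 to 1.11), and for IRF9, by 0.74 (95% interval 0.39 to 1.09). TAP2, UBD and IRF9 were named after their values were seen, and without the GC correction UBD and IRF9 missed the test. Most calls of the lists were lost without it: 3 of the 7 larger and 3 of the 11 smaller responses were kept. Leaving out IFNg+ABBV-075 replicate 3 kept 4 of the 7 and 4 of the 11. Outside the lists, GNPTAB and DDX18 had larger responses, by 1.14 and 0.83, and PA2G4, HNRNPA0, SNORD15B and angiotensinogen (AGT) smaller ones, by -1.37, -1.44, -1.39 and -0.94. For IRF1 and TAP1 the differences were 0.0057 (95% interval -0.37 to 0.38) and -0.35 (95% interval -0.62 to -0.083), neither past the test. Leaving out 1 library changed the number of larger responses from 445 to between 118 (without ABBV-744 replicate 2) and 1116 (without ABBV-075 replicate 3).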

How the data were processed

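HepG2 RNA was depleted of ribosomal RNA, made into stranded libraries and sequenced. Per the labels and the submitters' processing notes, the authors used CASAVA 1.8.2, Trimmomatic 0.33 and STAR 2.7.1 on GRCh38 and deposited raw read counts per gene and library, and the annotation was not given in the sources used here. Only sense-strand counts entered the fits. Rows that name no gene held 83.2% to 88.0% of each of the 24 libraries and were left out, and reads mapping to several places are not in the gene counts. Genes passing filterByExpr were tested with edgeR 4.0.16 (R 4.3.3) by the quasi-likelihood test, with TMM scaling, offsets from a lowess curve (span 0.3) of each library against gene GC content, and Benjamini-Hochberg adjustment over all genes tested. Differences between responses were interaction contrasts over 12 libraries. Here a gene rose or fell at an adjusted p of at most 0.05, and past both thresholds if its log2 fold change was also 1.5 or more in size. A fold against a group with at most 3 counts in each library is a lower bound, set against 3 counts per library. GC content came from GENCODE, paired with 23161 of 26475 symbols directly and 1384 by synonym. Fits were tested on simulated counts with 200 changed genes. Genes named in the text were IRF1, TAP1, 2 to 4 members of each list by lowest adjusted p, at most 4 that missed the test, the 8 largest changes in each direction among genes whose log2 CPM averaged 1 or more and whose groups lay apart and 4 per direction of each difference. Any others were chosen after their values were seen. Some genes the rule covers are not reported here. Members and lists were chosen with earlier results of these data known. Alternatives were DESeq2 1.42.0, no GC correction, other scalings, filters and strands, all 24 libraries in 1 fit, a replicate block and leaving out each library. With 3 libraries a group and 2978982 to 4304103 gene counts each, intervals cover the spread between libraries only.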

Additional observations from a re-analysis of the deposited data

Results flagged for a closer look

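Some responses under ABBV-744 at 50 nM differed from those in another arm by the test of the difference itself (edgeR quasi-likelihood, adjusted by Benjamini-Hochberg). Up to 4 of the lowest adjusted p in each direction are given here as differences in log2 fold change. Against the response without inhibitor, they were 1.87 for TAX1BP1, 1.71 for HSP90AA1, 1.03 for ARHGAP5 and 1.16 for PON2, and -1.73 for GLUL, -1.38 for PA2G4 and -1.06 for TF. All 7 also passed the test without the GC correction. Against 500 nM they were 0.72 for MBNL2 and 0.77 for ZNRF2, and -0.92 for PA2G4, -0.72 for RNA45S5, -0.78 for NUP50 and -1.07 for PXDC1. MBNL2, ZNRF2 and NUP50 missed the test without the GC correction. Against ABBV-075 they were 0.81 for SAMHD1, 0.83 for LAP3, 1.14 for GNPTAB and 0.83 for DDX18, and -1.37 for PA2G4, -1.44 for HNRNPA0, -1.39 for SNORD15B and -0.94 for AGT. PA2G4 appears in all 3 comparisons, which share the 6 ABBV-744 50 nM libraries. Its level was 199 to 217 CPM with ABBV-744 at 50 nM, 114 to 121 with 500 nM and 63.9 to 82.1 with ABBV-075, all without IFNg, and 80.6 to 99.7, 94.1 to 105 and 71.6 to 84.4 CPM with it.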

How the results depend on the processing

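Without the GC correction, 3299 genes fell and 567 were upregulated past both thresholds, and the share of calls that were higher went from 65.3% to 50.6%. Without it, 2866 responses were larger and 3039 smaller than without inhibitor, 0 and 3 than at 500 nM, and 2311 and 1714 than under ABBV-075. DESeq2 without it gave 2326 genes that fell, 612 upregulated past both thresholds, and differences of 2788 and 2214, 0 and 3, and 2291 and 1234. DESeq2 with the GC correction gave 0 larger responses against 500 nM. With no filter on low counts, 34 genes were downregulated past both thresholds, and the differences were 10 and 72 against 500 nM and 855 and 634 against ABBV-075. A minimum count of 30 gave 10 downregulated genes and 0 and 5 against 500 nM. RLE scaling gave 0 and 6 there and moved the higher share against ABBV-075 from 55.3% to 66.5%. A single fit of all 24 libraries gave 28 downregulated genes, 0 and 6 against 500 nM and 1022 larger responses against ABBV-075, a higher share of 70.0%. The cause of these shifts was not tested.

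Same-numbered libraries shared no clear deviation after GC correction: their deviations correlated at 0.072, 0.045 and -0.019. Such values cannot show whether these libraries were handled together, and the labels do not say. A replicate block with GC correction gave 2466 genes that rose, 1318 that fell and 33 smaller responses against 500 nM. The block without GC correction gave 3275 that fell, 578 upregulated past both thresholds, and differences of 2836 and 2927, 1 and 7, and 2396 and 1848.

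Leaving out 1 library gave 1909 to 2769 genes that rose, 935 to 1059 that fell, 115 to 179 upregulated (179 without ABBV-744 low replicate 1) and 15 to 31 downregulated past both thresholds (31 without IFNg+ABBV-744 low replicate 1). Differences ranged from 1032 to 1455 larger and 846 to 1033 smaller than without inhibitor, 0 to 3 and 3 to 70 (without ABBV-744 high replicate 2) than at 500 nM, and 118 to 1116 and 158 to 690 than under ABBV-075, where the lowest smaller count came without IFNg+ABBV-075 replicate 3.

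Directions turned for 5 of 95 named genes. With no GC correction, DESeq2 without it and the block without it, in this order, NAMPT was 0.81, 0.84 and 0.81, IL32 -0.066, -0.031 and -0.074, FGG 0.36, 0.39 and 0.37, and ALB 0.49, 0.52 and 0.50. ALB was 0.0069 with no filter and ranged from -0.13 to 0.037 when 1 library was left out (0.037 without ABBV-744 low replicate 1, 0.017 without IFNg+ABBV-744 low replicate 1), and HEXIM1 ranged from -0.23 to 0.024 (0.024 without IFNg+ABBV-744 low replicate 2). DESeq2 with the GC correction, RLE scaling, all 24 libraries and an added correction for transcript length, chosen after seeing the data, kept direction and side of the threshold for all 95.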

Other observations

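Of the 116 genes upregulated past both thresholds, 58 lay outside the 15 interferon-linked lists, and those named here were chosen after their values were seen. Several are known interferon targets. The STAT-interacting gene NMI rose by 4.21 on the log2 scale, the transcription factor BATF2 by 3.78 and the transglutaminase TGM2 by 3.29. The butyrophilins BTN3A3 and BTN3A1 rose by 2.92 and 1.88. The macrophage growth factor CSF1 rose by 1.67 and the receptor TNFRSF14 by 2.23. PSMB8-AS1, antisense to PSMB8, rose by 3.73.

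Other genes outside the lists had a larger response here than without inhibitor. The autophagy receptor OPTN rose by 2.66, a difference of 1.36 (adjusted p = 6.87e-06, edgeR quasi-likelihood test with Benjamini-Hochberg adjustment). The zinc-finger genes ZNF765, ZNF845 and ZNF146 rose by 2.21, 1.74 and 1.56, with differences of 2.32, 1.91 and 1.53. The DNA repair gene BRCA2 rose by 1.72 and the mitotic kinase TTK by 1.598, with differences of 1.74 and 1.61.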
